A study of Mus musculus with 3 samples.

Results

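NFI sites that lie inside gene bodies were described from ChIP-Seq tags of mouse embryonic fibroblasts. A deposited interval counted as a gene-body site when its centre lay inside a protein-coding gene on chromosomes 1 to 19 and more than 5 kb from every annotated transcription start site (TSS) of a protein-coding gene. This held for 14177 of the 39807 deposited sites, or 35.6%. A further 7637 sites lay within 5 kb of a TSS, 16811 lay outside genes and 1182 were on chromosome X or Y. The wild-type NFI ChIP, the NFI ChIP of NFI-C knock-out cells and the input DNA of wild-type cells, taken before the antibody step, were each represented by 1 library, so that no test across samples was possible and intervals cover counting error only. All 3 came from primary fibroblasts of C57BL/6 embryos of 14.5 days at passages 6 to 7, and the knock-out was made by insertional mutagenesis. The title of the knock-out sample names NFI-C knock-out cells while its description reads wild-type, and the title was followed here. The H300 antibody was raised against the NFI group, and so can also bind the family members other than NFI-C. The libraries hold genomic DNA, so neither the loss of NFI-C nor fibroblast markers could be read from them.

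The deposited sites had been called on the wild-type ChIP alone. Wild-type tags at the sites are therefore given as a description, whereas knock-out and input tags did not take part in choosing them. Each mapped read with a single place in the genome was taken as a tag at the position of its 5′ end, copies at the same position and strand were kept once, and tags were summed over 300 bp around the centre. The distinct tags numbered 3350071 for wild-type ChIP, 3132004 for knock-out ChIP and 4100449 for input, with genome averages of 0.393, 0.367 and 0.481 tags per 300 bp. At these depths most single sites held 0 or few knock-out and input tags, and ratios are meaningful over groups of sites only.

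The nuclear factor I proteins NFIA, NFIB, NFIC and NFIX bind DNA as dimers, each subunit contacting an arm of the palindrome TTGGCANNNTGCCAA. They act as activators or repressors depending on the gene, and much of the binding of such factors in vivo falls in introns, where enhancers are common. H3K36me3, the trimethylation of lysine 36 on histone H3, is laid down by the enzyme Setd2 that travels with elongating RNA polymerase II, and marks the bodies of transcribed genes. H3K4me3 marks active promoters, H3K27me3 marks Polycomb-repressed chromatin, and lamina domains lie at the nuclear envelope.

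The sequences below come from gene-body sites that had a palindrome with at most 1 mismatch and fewer than 5 input tags, and among these the most wild-type tags on chromosomes other than 18, from which no sequence is printed. Ties in wild-type tags went to sites with more knock-out tags. The sequences are shown because knock-out tags were more frequent at sites with a close match to the palindrome. Each run is from the forward strand of mm9, with the palindrome in capitals and 15 bases on either side in lower case. The token after the coordinates gives the mismatch, with the base of the palindrome, its position counted from 1 at the 5′ end of TTGGCANNNTGCCAA, and the base found.
Fam189a1, later intron, chr7:71983722-71983766, T2G: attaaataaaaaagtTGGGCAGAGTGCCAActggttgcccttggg
Tmem217, later intron, chr17:29665726-29665770, T2G: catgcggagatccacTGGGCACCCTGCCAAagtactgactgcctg
Sfswap, later intron, chr5:130024174-130024218, T1G: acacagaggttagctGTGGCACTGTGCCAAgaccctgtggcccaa
Whsc1l1, first intron, chr8:26730755-26730799, A15G: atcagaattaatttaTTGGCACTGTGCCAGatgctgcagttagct
Baz2b, intron, chr2:60009910-60009954, T2G: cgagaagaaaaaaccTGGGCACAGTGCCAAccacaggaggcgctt
Fgfr2, later intron, chr7:137978846-137978890, T1C: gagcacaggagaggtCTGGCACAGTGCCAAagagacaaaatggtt
Gm17283, first intron, chr4:11402644-11402688, A6T: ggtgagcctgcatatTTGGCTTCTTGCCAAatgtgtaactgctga
Zmiz1, later intron, chr14:26385021-26385065, A15G: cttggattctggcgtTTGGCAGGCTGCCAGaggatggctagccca
Zbtb16, later intron, chr9:48568899-48568943, A6C: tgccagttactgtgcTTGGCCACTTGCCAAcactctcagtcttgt
Zfhx3, later intron, chr8:111346759-111346803, A15G: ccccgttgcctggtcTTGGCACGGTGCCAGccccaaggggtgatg

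All 10 of these palindromes lay in introns, where 92.4% of all members lay, and were 16 to 149 bp from the centre of the deposited interval. The site in Fam189a1 had 10 wild-type tags and no knock-out or input tag. In the other 9, the knock-out tags ranged from 1 to 5 and the input tags from 0 to 2. The sites in Baz2b, which encodes a bromodomain protein, and in the span annotated as Fgfr2 each held 6 wild-type and 5 knock-out tags and 0 of input. Fgfr2 encodes a receptor of fibroblast growth factors. Its annotated span of 3009 kb contains 31 other protein-coding genes, so the site need not belong to the receptor gene. Zbtb16, a zinc finger repressor, had 6, 2 and 0 tags, and Zfhx3, a homeobox transcription factor, had 6, 1 and 1. Whsc1l1 codes for a histone H3 lysine 36 methyltransferase, and its site had 7, 2 and 0 tags. After scaling for library size the knock-out exceeded the input at 9 of these 10 sites, a count that their choice favours. They were taken for many wild-type and few input tags, with ties in wild-type tags broken by more knock-out tags. The knock-out exceeded the input at 58 of all 83 members with at most 1 mismatch, and at 5118 of the 14177 members (36.1%).

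Wild-type tags at the 14177 gene-body sites ranged from 1 to 181 with a median of 3. The tags summed to 45409 in wild-type ChIP, 9803 in knock-out ChIP and 9117 in input, which is 8.15, 1.88 (1.85 to 1.92) and 1.34 (1.31 to 1.37) times the genome average of each library. No knock-out tag was found at 8526 sites (60.1%), where 58.1% of all deposited sites on chromosomes 1 to 19 had none. There were 3 or more knock-out tags at 848 sites (5.98%), against 7.06% of all sites. At a single site, the count of knock-out or input tags thus rested on very few tags. The deposited threshold of 5 tags was not reached in 300 bp by most members: 1476 sites (10.4%) had 5 or more wild-type tags as counted here, and 2277 (16.1%) after moving each tag 75 bp in its direction. With that shift and 600 bp, 14119 sites (99.6%) reached it.

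**Figure D1:**
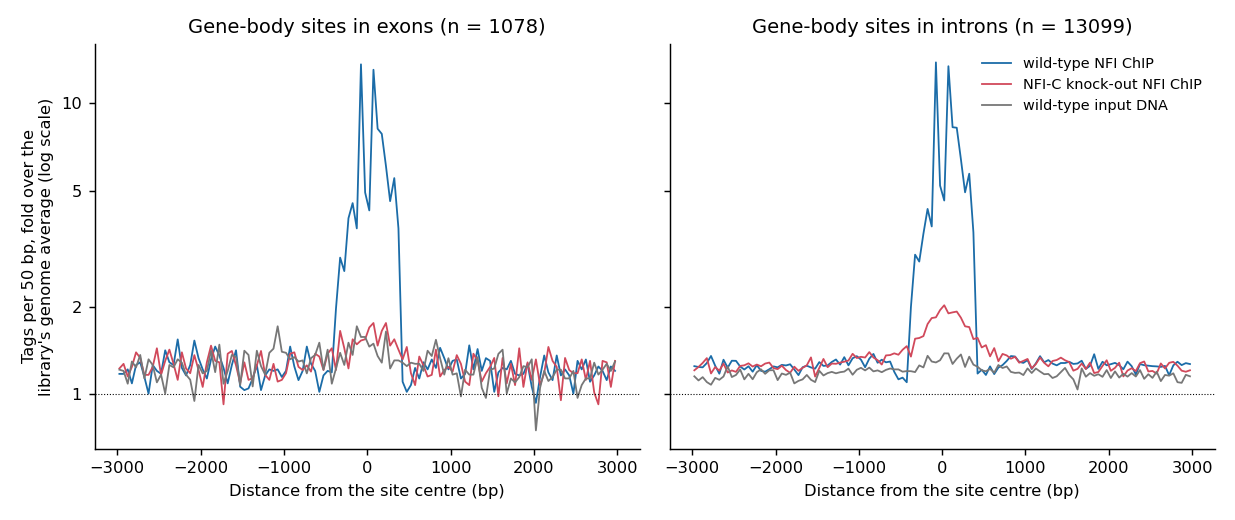
Tags per 50 bp around gene-body sites in exons (left) and introns (right), as the fold over the genome average of each library on a log axis, against the distance from the site centre in bp. The wild-type tags chose the sites, so the height of their line is given as a description only. Around intron sites the knock-out line rises in the centre above the input, while around exon sites both lines stay close to each other.

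When knock-out tags were divided by input tags and scaled to the library totals, gene-body sites gave 1.41 (1.37 to 1.45). The same ratio was 0.790 (0.768 to 0.813) within 5 kb of a TSS and 1.25 (1.22 to 1.28) outside genes. Part of this order was also present in the sequence as a whole. Over all eligible gene-body sequence the ratio was 1.05, near TSS 0.714 and outside genes 1.08. Relative to all tags of the same compartment, the knock-out over input was 1.34 times higher (1.30 to 1.38) at gene-body sites, 1.11 times (1.08 to 1.14) within 5 kb of a TSS and 1.16 times (1.13 to 1.19) outside genes. The value for gene bodies exceeded that near TSS by 1.21-fold (1.16 to 1.26) and that outside genes by 1.16-fold (1.11 to 1.20), beyond counting error. The order against sites outside genes turned when sites with many input tags were left out. Among sites with fewer than 5 input tags the plain ratio of gene bodies to sites outside genes was 0.933 (0.897 to 0.971), where it was 1.13 (1.09 to 1.17) over all sites, and the ratio to sites near TSS was 1.17 (1.12 to 1.22) instead of 1.78 (1.71 to 1.85). The 19 chromosomes taken singly gave ratios of knock-out over input at gene-body sites between 1.29 on chromosome 11 and 1.58 on chromosome 18, with a median of 1.41, all above 1.

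The knock-out over input rose with the number of wild-type tags of a site from 1 to 6 tags, and was lower again at 7 or more. It was 1.23 (1.16 to 1.30) at the 3770 sites with 1 or 2 wild-type tags, 1.33 (1.26 to 1.39) at the 5526 sites with 3, 1.45 (1.37 to 1.54) at the 3405 sites with 4, 1.66 (1.51 to 1.84) at the 1118 sites with 5 and 2.82 (2.34 to 3.41) at the 245 sites with 6. The input at the same groups stayed between 1.24 and 1.40 times the genome average. The 113 sites with 7 or more wild-type tags gave 1.76 (1.56 to 1.98), with the knock-out at 15.4 times (14.3 to 16.7) and the input at 8.78 times (8.01 to 9.60) its average. Sites with strong input signal weighed on this group. When sites with 5 or more input tags were left out of every group, the ratios were 1.25 (1.18 to 1.32), 1.35 (1.29 to 1.42), 1.48 (1.39 to 1.57), 1.68 (1.53 to 1.86) and 2.98 (2.45 to 3.64) in the same order, and 4.39 (3.45 to 5.63) at the 100 sites left with 7 or more wild-type tags, 24 of which had no knock-out tag. This limit acts on the denominator of the ratio, so that the order at 7 or more tags depends on it. Strong input signal was rare among the members: 38 sites (0.268%) had 5 or more input tags, against 2.06% of all deposited sites on chromosomes 1 to 19. A site in an intron of Cdk5rap2, which encodes a centrosomal protein, held 181 tags of the wild-type ChIP, 190 of the knock-out ChIP and 204 of the input. Without it the ratio over all members was 1.41 (1.37 to 1.45).

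**Figure D2:**
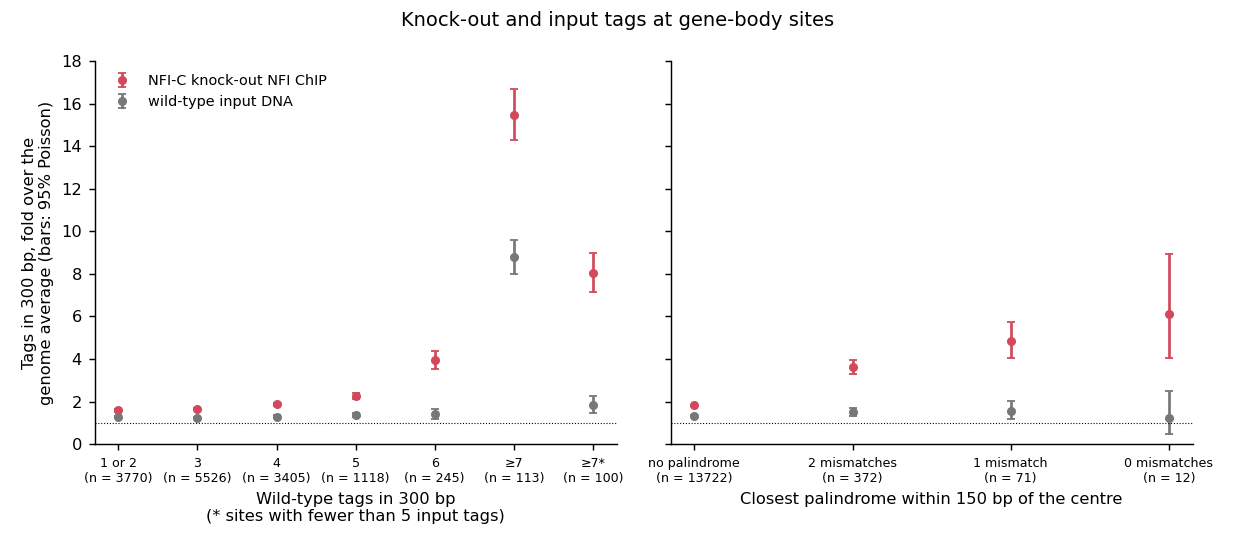
Knock-out ChIP and input tags in 300 bp at gene-body sites, as the fold over the genome average with 95% Poisson intervals, against the number of wild-type tags (left) and against the closest palindrome (right). The knock-out library rises from 1.59 times its average at 1 or 2 wild-type tags to 15.4 at 7 or more, where the input reaches 8.78, and the star marks the latter group without sites of 5 or more input tags, at 8.03 and 1.83. By palindrome, the knock-out rises from 1.82 to 6.13 and the input stays below 2.

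Base composition separated the libraries inside gene bodies. Sites had 42.2% ± 7.3 G and C in 300 bp (mean and SD over 14177 sites). Over all eligible sequence the knock-out over input fell from 1.20 (1.19 to 1.21) where G and C made up less than 35% to 0.660 (0.651 to 0.668) at 55% and over. At the sites it was 1.27 (1.17 to 1.37) and 1.29 (1.15 to 1.44) in the same ranges, and highest at 50 to 55% with 1.57 (1.46 to 1.70). The sites were thus compared with all eligible sequence of the same composition, not with their own flanks. Relative to it, their ratio was 1.05-fold (0.975 to 1.14) below 35% and 1.95-fold (1.74 to 2.18) at 55% and over. These differed by 1.85-fold (1.61 to 2.12). The number of sites per input tag went the other way, from 15.3 per 1000 input tags (14.7 to 15.9) below 35% to 8.27 (7.59 to 8.98) at 55% and over. Per megabase the same ranges held 22.8 and 20.9 sites. The wild-type ChIP, on which the sites were called, also fell against the input over all eligible sequence, from 1.29 to 0.602. The part of this fall in the number of sites per input tag was not tested. GC-rich members were thus fewer for the input present but nearly as frequent per megabase. Their knock-out over input was the higher one relative to eligible sequence of the same composition.

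The split by gene structure placed 1078 members (7.60%, 7.17 to 8.05) in exons and 13099 in introns. Among the exon sites 452 were in coding sequence, 555 in a 3′ UTR, 4 in a 5′ UTR and 67 in exon sequence annotated as neither coding nor UTR. Exons held 5.07% of the eligible bases and 6.37% of the input tags in gene bodies, so that sites were 1.54 times denser per megabase in exons than in introns (1.45 to 1.64) and 1.21 times denser per input tag (1.14 to 1.29). Where genes overlap, a site was placed by the exons and introns of all of them, exons first. The excess per input tag depended on composition. Exons and introns had 24.1 (20.5 to 28.2) and 14.9 (14.3 to 15.5) sites per 1000 input tags below 35% G and C, and 16.8 and 9.82 at 45 to 50%, where the intervals did not overlap. At 50 to 55% they differed by less than counting error, at 11.2 (9.45 to 13.1) and 10.3 (9.78 to 10.8). At 55% and over exons had fewer per input tag, at 5.59 (4.62 to 6.70) against 9.45 (8.59 to 10.4). Per megabase, however, exons and introns had 21.1 and 20.8 sites in that range. The wild-type ChIP over input there was 0.408 in exons and 0.688 in introns. Per wild-type tag over all compositions, sites were 1.49 times denser in exons than in introns (1.39 to 1.58). The highest density was that of 3′ UTRs, with 32.0 sites per megabase (29.4 to 34.8) and 17.3 per 1000 input tags (15.9 to 18.8). Coding exons also exceeded introns per megabase, by 1.42-fold (1.29 to 1.56), with 26.5 sites (24.1 to 29.0). They had 11.2 per 1000 input tags (10.2 to 12.3), which did not differ from the 11.4 of introns (11.2 to 11.6) beyond counting error. Per wild-type tag coding exons exceeded introns by 1.43-fold (1.30 to 1.57). First and later introns differed by less than counting error, as first introns held 0.994 times (0.954 to 1.04) as many sites per megabase as later ones.

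Exon sites summed to 3364 wild-type and 626 knock-out tags and 792 of input, and intron sites to 42045, 9177 and 8325. The wild-type tags chose the sites, and their means of 3.12 per exon site and 3.21 per intron site are given as a description only. The knock-out over input was 1.03 (0.930 to 1.15) in exons and 1.44 (1.40 to 1.49) in introns, a ratio of 0.717 (0.643 to 0.800). The ratio lay below 1 on 16 of the 19 chromosomes, with 29 to 90 exon sites each. As exon sequence as a whole also had a lower knock-out over input, at 0.866 (0.856 to 0.876) against 1.06 (1.06 to 1.07) in introns, the contrast narrowed to 0.881 (0.790 to 0.983) relative to the same kind of sequence. Within ranges of G and C the plain ratio of exons to introns was between 0.819 and 0.936 below 50%, with intervals that included 1, and 0.517 (0.387 to 0.689) and 0.364 (0.268 to 0.495) in the ranges of 50 to 55% and 55% and over. Coding exons had 0.838 (0.709 to 0.990), 3′ UTRs 1.19 (1.02 to 1.38), first introns 1.49 (1.40 to 1.58) and later introns 1.42 (1.38 to 1.47).

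**Figure D3:**
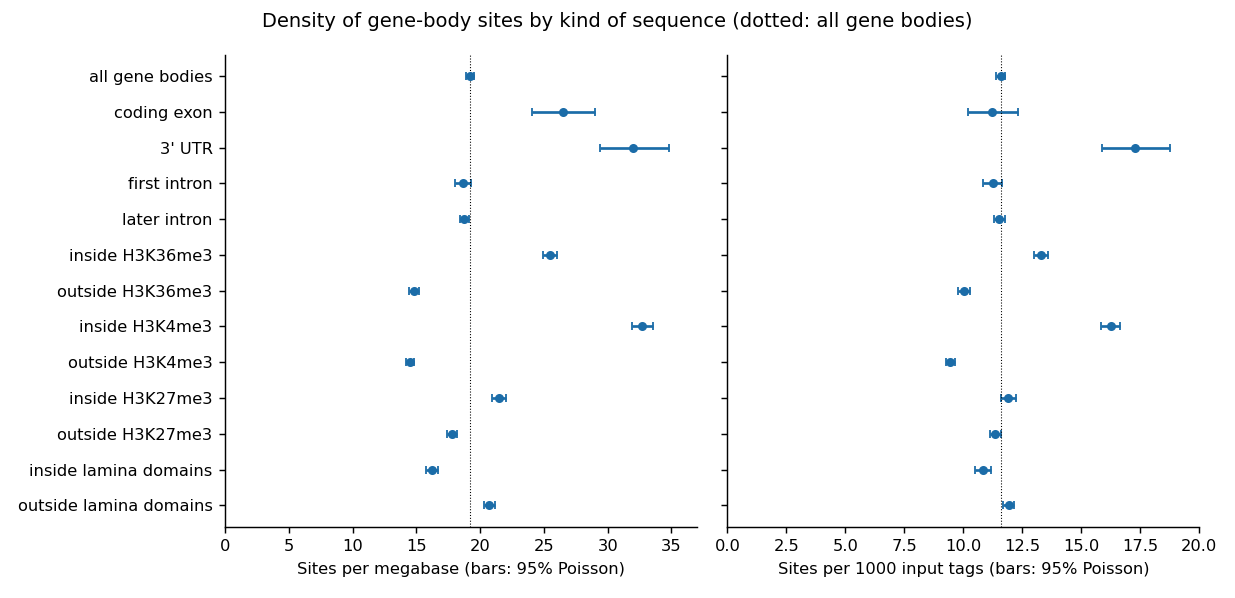
Density of gene-body sites per megabase (left) and per 1000 input tags (right) by kind of sequence, with 95% Poisson intervals. The dotted line is the value over all gene bodies, 19.2 per megabase and 11.6 per 1000 input tags. H3K4me3-rich and H3K36me3-rich sequence and 3′ UTRs lie to the right of it on both scales, and coding exons only on the left panel.

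Regions rich in H3K36me3 contained 7753 of the members, or 54.7% (53.9 to 55.5), against 36% of all deposited sites on chromosomes 1 to 19, a set that includes sites outside genes. They made up 41.2% of the eligible gene-body bases and 47.7% of the input tags there. Sites were 1.72 times denser per megabase inside than outside H3K36me3 (1.66 to 1.78), and 1.33 times denser per input tag (1.28 to 1.37). The excess was seen in introns, at 1.32 (1.28 to 1.37) per input tag, and in exons, at 1.23 (1.08 to 1.41). It was present in every range of G and C, with 18.3 sites per 1000 input tags inside and 13.7 outside below 35%, and 9.34 and 6.67 at 55% and over. Wild-type tags as a whole were also 1.29 times denser per megabase inside H3K36me3 than outside (1.28 to 1.29). Sites had to reach a fixed number of wild-type tags, so a rate per tag need not remove coverage. The part of coverage in the excess of sites was not tested. Pooled over all compositions, the knock-out over input differed by less than counting error. Sites inside had 5972 knock-out and 5509 input tags and sites outside 3831 and 3608, which gave 1.42 (1.37 to 1.47) and 1.39 (1.33 to 1.46) and a ratio of 1.02 (0.963 to 1.08). The ratio was above 1 on 9 chromosomes and below 1 on 10. By G and C it was 0.834 (0.705 to 0.987) at 50 to 55% and 1.30 (1.01 to 1.67) at 55% and over. In each range below 50% the interval included 1. The pooled ratio depended on how copies were counted. With every uniquely mapped tag in place of 1 per position and strand it was 0.777 (0.746 to 0.810).

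By density and knock-out over input, H3K4me3-rich regions separated the members more clearly. The deposited regions are broad, with a median length of 16.5 kb for H3K4me3, 46.3 kb for H3K36me3 and 38.8 kb for H3K27me3. A site inside a region therefore need not carry the mark itself. The H3K4me3-rich regions held 6252 members (44.1%) on 191 of the 739 eligible megabases. This share was close to the 42.6% of all deposited sites, a set that includes sites outside genes and near TSS. Inside these regions, members were 2.26 times denser per megabase (2.18 to 2.33) and 1.72 times denser per input tag (1.66 to 1.78) than outside. Their knock-out over input was 1.56 (1.50 to 1.62) against 1.24 (1.19 to 1.29), a ratio of 1.26 (1.19 to 1.34), which was 1.22 (1.15 to 1.29) relative to the same kind of sequence and above 1 on 18 of 19 chromosomes. Wild-type tags as a whole were also 1.35 times denser per megabase inside H3K4me3 than outside (1.34 to 1.35), with the same limit on rates per tag. Regions of both H3K36me3 and H3K4me3 covered 4846 sites. Inside H3K36me3, the sites with and without H3K4me3 had 1.56 (1.49 to 1.63) and 1.12 (1.04 to 1.20), and outside H3K36me3 1.58 (1.45 to 1.72) and 1.32 (1.25 to 1.39). Among the members without H3K4me3, those in H3K36me3 thus had the lower ratio, by 0.847-fold (0.775 to 0.924), while with H3K4me3 the difference was within counting error at 0.987 (0.898 to 1.09).

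Regions rich in H3K27me3 held 6134 members (43.3%), a lower share than the 54.4% of all deposited sites. Inside them, members were 1.05 times denser per input tag than outside (1.01 to 1.08). The knock-out over input was 1.50 (1.44 to 1.56) inside against 1.33 (1.28 to 1.38). Lamina domains, which were mapped in human fibroblasts and lifted to the mouse genome, held 4059 members (28.6%), against 32.4% of all deposited sites. They had 0.908 times as many sites per input tag (0.875 to 0.942) and a knock-out over input of 1.34 (1.26 to 1.42) against 1.43 (1.38 to 1.48).

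**Figure D4:**
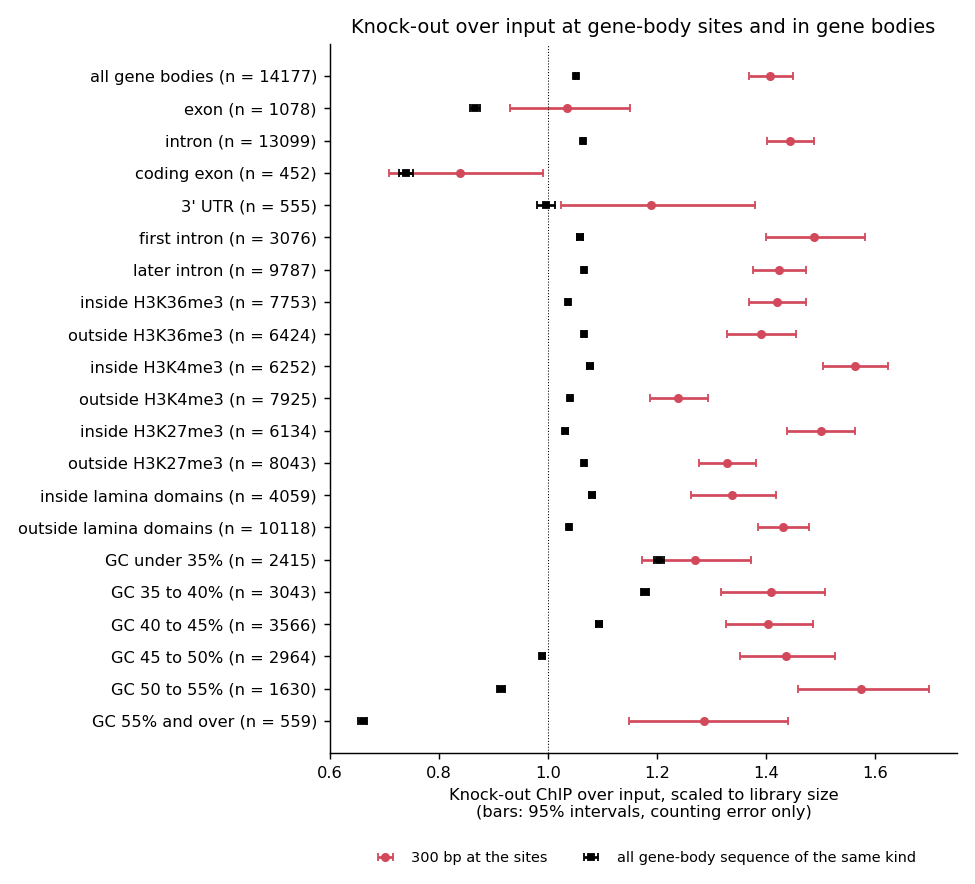
Knock-out ChIP over input, scaled to library size, in 300 bp at gene-body sites (circles) and in all eligible gene-body sequence of the same kind (squares), with 95% intervals that cover counting error only. Circles lie to the right of squares in every row, with intervals that overlap in coding exons and where G and C are below 35%, and the distance between them widens with G and C content up to 50 to 55%.

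Along the gene, sites were most frequent at the 3′ end. In 6727 genes with at least 20 kb of eligible body, the 10% of the gene next to its start held 18.0 sites per megabase (16.8 to 19.3), and the 10% next to its end 22.8 (21.7 to 23.9). Per 1000 input tags these were 11.2 (10.4 to 11.9) and 13.2 (12.5 to 13.8). The parts between them, each 10% of the gene, had 10.9 to 12.3 sites per 1000 input tags. Members lay from 5002 to 949963 bp from the nearest TSS, with a median of 31423 bp. Just inside the limit were sites in Tomm34 at 5002 bp, Nbeal1 at 5004 bp and Ermn at 5005 bp, with 4, 2 and 4 wild-type tags, and just outside it sites in Iffo2 at 4999 bp, Gimap4 at 4998 bp and Smtnl1 at 4995 bp, with 2, 3 and 2. The knock-out over input was 1.24 (1.16 to 1.33) from 5 to 10 kb, 1.58 (1.48 to 1.70) from 50 to 100 kb and 1.33 (1.24 to 1.43) beyond 100 kb. Neighbouring members on a chromosome were 44273 bp apart in the median, and 599 pairs (4.23%) were within 2 kb.

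A palindrome with at most 2 mismatches at its 12 fixed bases had its centre within 150 bp of 455 members (3.21%, 2.93 to 3.51). This share was 3.15% over all deposited sites on chromosomes 1 to 19. It was 1.32% (1.19 to 1.46) in the windows 2 kb to either side of the members and 1.25% (1.24 to 1.27) in 300 bp windows tiled over the eligible gene bodies. So the palindrome was more frequent at the members than around them, but most members lacked it. The 12 sites without mismatch had 50 wild-type and 27 knock-out tags and 7 of input, the 71 sites with 1 mismatch 293, 126 and 53, and the 372 sites with 2 mismatches 1343, 493 and 270. Knock-out over input was 5.05 (2.15 to 13.7), 3.11 (2.24 to 4.38) and 2.39 (2.06 to 2.78), and 1.36 (1.32 to 1.40) at the 13722 sites with none. The input differed little between the groups, at 1.21 (0.488 to 2.50), 1.55 (1.16 to 2.03), 1.51 (1.33 to 1.70) and 1.33 (1.30 to 1.36) times its genome average. In the median the palindrome lay 71 bp from the site centre, and 149 of the 455 lay within 50 bp. The share with a palindrome was 3.62% (3.22 to 4.07) inside and 2.71% (2.33 to 3.14) outside H3K36me3, while it was 3.43% (2.43 to 4.70) in exons and 3.19% (2.90 to 3.51) in introns.

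A single arm of the palindrome, TTGGCA on either strand, occurred in 300 bp at 2708 members (19.1%, 18.5 to 19.8), in 14.9% (14.5 to 15.3) of the windows 2 kb away and in 14.8% of the eligible windows. It was present in 299 of the 455 members with a palindrome. Among members without a palindrome, those with this arm had 1.17 times (1.08 to 1.26) the knock-out over input of those lacking it. TGANTCA, with any middle base, includes the element bound by AP-1, the Fos and Jun heterodimer, which has C or G there. The counts are thus of the wider pattern, not of AP-1 elements alone. It was at 1829 members (12.9%, 12.4 to 13.5), against 9.53% (9.19 to 9.87) of windows 2 kb away and 9.05% of the eligible windows. Of these members 72 also had a palindrome. Sites with TGANTCA had a knock-out over input of 1.74 (1.61 to 1.88) and those without it 1.36 (1.32 to 1.40). GGAATG, the core bound by TEAD factors, was at 17.9% (17.2 to 18.5) of members and in 15.8% of the eligible windows. A match to a word describes the sequence only, and these words were chosen after the results above were seen.

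Genes differed widely in the number of sites per length. Of 14043 protein-coding genes with an eligible body 5007 (35.7%) held a member, 806 held at least 5 and 231 at least 10, and 244 members lay in more than 1 gene. Over the 6727 genes with at least 20 kb, the density was 1.92 sites per 100 kb, with a median over genes of 1.45. Genes with H3K36me3 over nearly the whole body, 99% or more, had 2.62 sites per 100 kb (2.54 to 2.70) and 13.5 per 1000 input tags (13.1 to 13.9), and genes with less than 1% covered had 1.38 (1.34 to 1.42) and 9.75 (9.46 to 10.1). The median input over these bodies was 1.18 and 0.932 times the genome average.

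The 20 genes with the most sites per 100 kb, among those with at least 5 sites and 20 kb of eligible body, had up to 19.6. Their 123 sites summed to 398 wild-type and 101 knock-out tags and 98 of input, with a knock-out over input of 1.35 (1.01 to 1.80). H3K36me3 covered 99% or more of the body in 17 of the 20, against 40.8% of the 6727 genes and 27.1% of the 804 genes among them with at least 5 sites. These shares are not matched for length. The 20 genes had 25.5 to 129 kb of eligible body. The median coverage over genes was 100% at 20 to 50 kb, 86.7% at 50 to 100 kb, 57.7% at 100 to 200 kb and 8.83% at 200 to 500 kb. Of the 123 sites 15 were in exons and 4 had a palindrome, against 7.60% and 3.21% of all members. Each density rests on few sites, since 11 of the genes had exactly 5, and neighbours in the order overlap in their intervals. Which genes lead also depends on the TSS used. The density over the 20, 11.4 as reported, was 18.2 with the outermost TSS of each gene only, where 12 of the genes were shared, and 10 were shared with a TSS distance of 2 or of 10 kb. Zcchc14, a gene for a zinc finger protein (chr8:124122603-124176801), led with 5 sites in 25.5 kb, or 19.6 per 100 kb (6.36 to 45.7). Its sites held 3, 2, 3, 2 and 2 wild-type tags, with 3 knock-out tags and 1 input tag over all 5. The first of these sites lay in 3′ UTR sequence and the others in introns, and all 5 also lay within the long span annotated as Gm20388. Papd7, for a non-canonical poly(A) polymerase, had 16.2 (5.27 to 37.9), with 15 wild-type and 3 knock-out tags and 4 of input at 5 sites. Cltc, the clathrin heavy chain, had 13.6 (4.41 to 31.7), and its 5 intron sites held 16 wild-type and 5 knock-out tags and 0 of input.

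Genes of the matrix and the cytoskeleton were among the 20. Loxl2, a lysyl oxidase that cross-links collagen, had 9 sites in 80.5 kb (11.2 per 100 kb, 5.11 to 21.2), with 29 wild-type and 12 knock-out tags and 12 of input, and its whole body had 2.04 times the average input. Fstl1, a secreted glycoprotein, had 5 sites with 12, 5 and 4 tags, and Itgb8, an integrin subunit that activates latent TGF-beta, 8 sites with 23, 3 and 7. Myh9, the heavy chain of non-muscle myosin, had 5 sites with 14, 3 and 7 tags and levels over its body of 2.12 times the average in both the input and the wild-type ChIP. The signalling inhibitor Spred1 and the adhesion protein Flrt2 had 6 and 7 sites. Further genes were Ctdspl2, Reps1, Pigc, Sltm, D4Bwg0951e, Abcc5 and Mrpl1, with 5 or 6 sites each and 9.69 to 15.5 sites per 100 kb.

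In Trpm8 and BC030307, H3K36me3 covered 18.8% and none of the body. Trpm8, the cold-sensing cation channel, had 8 sites with 36 wild-type and 19 knock-out tags and 15 of input, and 6 of the sites lay within 9.98 kb near its start, all 6 inside H3K36me3. Its wild-type level over the body was 0.979 times the input. Over the bodies of the 20 genes the input ranged from 0.863 to 2.12 times the genome average with a median of 1.25, and the wild-type ChIP from 1.25 to 2.12 with a median of 1.75. The wild-type exceeded the input over the body in 17 of the 20, against 60.3% of the 6727 genes and 84.3% of those 804, and the wild-type tags were also those on which the sites had been called. Input DNA thus also varied among these genes, and its part in their density was not tested.

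The genes with the most sites were long. Gm20388 had 71 sites, and Fgfr2 45, but the annotation gives them spans of 4435 and 3009 kb that contain 72 and 31 other protein-coding genes, and 33 and 22 of their sites also lay in such a gene. Ptprd, a receptor tyrosine phosphatase of neurons, had 43 sites with 139 wild-type and 18 knock-out tags and 17 of input. Pde4d, a cyclic AMP phosphodiesterase, had 40 sites with 134, 45 and 24 tags. 1700112E06Rik had 36, Cntnap2, a neuronal adhesion protein, and Macrod2 34 each, and Pard3b 32. Their densities, between 1.54 and 3.60 per 100 kb, were in the range of other genes. H3K36me3 covered 45.5% of the body of Gm20388, 30.5% of Fgfr2, 14.8% of Pde4d and 0.522% or less of the others. Less than 1% was covered in 68.2% of all genes with at least 500 kb of eligible body.

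Among the 170 genes with at least 500 kb of eligible body, 110 (64.7%) had no H3K36me3 in the body, and so did the 8 with the lowest densities. Skint5 had no site in 507 kb, which has an upper 95% Poisson limit of 0.728 sites per 100 kb, and Csmd2 had 1 in 515 kb. Grid1 and Grm7, both glutamate receptor genes, had 2 and 4 sites, the contactin-associated genes Cntnap5c and Cntnap5a 2 and 3, 1700007B14Rik 2, and Dpp10, which modulates potassium channels, 3. The wild-type level over these 8 bodies was 0.693 to 0.909 times the genome average and the input 0.578 to 0.852, so that fewer tags of both kinds fell there.

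Gene lists by function are given by counts, and no list was tested. The examples named from a list were taken from its genes with the most sites, so they do not stand for its other genes. The share with a site is set beside the 35.7% of all genes with an eligible body, and the density beside 1.92 per 100 kb and 11.8 sites per 1000 input tags over genes with at least 20 kb. The share rises with length, from 40.8% of genes with 20 to 50 kb of eligible body to 87.0% with 100 to 200 kb and 99.4% with 500 kb or more, and was 61.5% over all genes with at least 20 kb, so that shares of lists with genes of unlike length cannot be compared with each other or with 35.7% alone. Extracellular matrix genes of fibroblasts had a site in 30 of 39, and 125 sites at 4.27 per 100 kb (3.56 to 5.09) and 20.9 per 1000 input tags (17.4 to 24.9), with a median density of 4.23. Examples were Ltbp1, which tethers latent TGF-beta to the matrix, with 14 sites that held 44 wild-type tags and 12 of each other library, Fbn1 for the microfibril protein fibrillin-1, with 12 sites and 49, 12 and 6 tags, and Col4a2, a basement membrane collagen, with 7 sites and 25, 6 and 8 tags. Focal adhesion and actin genes had a site in 33 of 42 and 3.39 per 100 kb (2.92 to 3.91), and Lpp, a LIM protein of focal adhesions, held 29 sites, all inside H3K36me3, with 91, 13 and 20 tags. Arhgap26 held 23 sites with 75, 9 and 16 tags, none of them inside H3K36me3.

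Mesenchymal transcription factors had a site in 26 of 32 genes, at 3.38 per 100 kb (2.86 to 3.97). Ebf1 had 14 sites, Tcf12 13, and Gli3, a mediator of hedgehog signalling, 11. In the NFI family all 4 genes had a site. Nfia had 17 sites with 51 wild-type and 5 knock-out tags and 15 of input, Nfib 17 with 56, 10 and 10, Nfix 1 with 3, 1 and 0, and Nfic 1 with 3, 1 and 7. The 3 family members with at least 20 kb had 4.12 sites per 100 kb (2.87 to 5.73). Genes of TGF-beta and BMP signalling had a site in 20 of 31 and 2.69 per 100 kb (2.02 to 3.52), with 6 sites in Smad3, and 7 each in the receptors Tgfbr3 and Bmpr1b. Genes of growth factor receptors and their signalling, a list that includes ligands, had a site in 19 of 26 and 2.30 per 100 kb (1.87 to 2.79). Fgfr2 with its long span gave 45 of their 101 sites, and without it the list had 2.80 (2.11 to 3.63). Igf1r, the receptor of insulin-like growth factor, held 9 sites with 20, 11 and 5 tags.

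The lists of genes that mark other cell types had 1.39 to 2.19 sites per 100 kb. Only the neuronal and haematopoietic intervals did not overlap, and per 1000 input tags all of them overlapped. Synaptic and channel genes of neurons had a site in 50 of 51, as they are long, but 1.39 per 100 kb (1.28 to 1.50) and 10.1 per 1000 input tags (9.30 to 10.9). Lrp1b, a receptor of the LDL receptor family, had 26 sites with 81 wild-type and 7 knock-out tags and 15 of input. Haematopoietic genes had a site in 20 of 28, with 2.19 per 100 kb (1.78 to 2.67) and 13.2 per 1000 input tags (10.8 to 16.1). Arhgap15 held 21 sites and Elmo1 13. Hepatocyte genes had a site in 4 of 18, among them Apob with 3 sites, and the 7 with at least 20 kb had 2.18 per 100 kb (0.940 to 4.29) and 15.7 per 1000 input tags (6.76 to 30.8), from 8 sites. Elongation and H3K36 methylation genes had a site in 14 of 26 and 2.21 per 100 kb (1.33 to 3.44), with 3 sites in Whsc1 and 2 in Ash1l, both of which encode H3K36 methyltransferases. The intervals of the matrix, adhesion, mesenchymal factor and NFI lists lay above the value over all genes on both scales, where the NFI list rests on 3 genes, and that of the neuronal list lay below it on both. These intervals pool sites and cover counting error only, so they do not show how the genes of a list vary. Lpp and Arhgap26 gave 29 and 23 of the 188 adhesion sites, and Nfia and Nfib 17 each of the 35 NFI sites. The median H3K36me3 coverage of the body was 80.1% or more in the matrix, adhesion, mesenchymal factor and NFI lists and 0% in the neuronal list. It was also 100% in the TGF-beta and BMP, growth factor and elongation lists, which did not lie above on both scales, and 0% in the haematopoietic and hepatocyte lists, which did not lie below. Its part in the densities was not tested.

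Among sites with fewer than 5 input tags, the most wild-type tags were found in a later intron of D7Ertd443e (chr7:141479748-141479763). It held 18 wild-type and 11 knock-out tags and 1 of input. Ccdc38 followed with 14, 3 and 0, Tec, a tyrosine kinase, with 12, 7 and 1, and 1700112E06Rik with 12, 5 and 2. The site in Mcc had 11, 3 and 0 tags and a palindrome without mismatch. Pde1a, a calmodulin-dependent phosphodiesterase, had 10, 5 and 1, Svep1 10, 2 and 0, and Fam189a1 10, 0 and 0. The last 2 were St3gal3, a sialyltransferase, with 9, 16 and 2, and Gm20388 with 9, 11 and 0, where the knock-out ChIP held more tags than the wild-type. Other members also had 9 wild-type tags, and ties went to sites with more knock-out tags. The knock-out excess at these 2 thus follows in part from the choice. All 10 sites in this list were in introns and 5 of them lay in H3K36me3-rich regions, against 92.4% and 54.7% of all members. Among sites with fewer than 5 input tags, the knock-out had most tags in the first intron of Camk1d, a calmodulin-dependent kinase, with 6 wild-type and 18 knock-out tags and 0 of input, and next, beside St3gal3, in an intron of Bcas3 with 6, 16 and 1, both chosen after their values were seen.

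The exon sites with the most wild-type tags and fewer than 5 input tags were in the 3′ UTR of Pard6g, a cell polarity gene, with 8 wild-type and 1 knock-out tags and 4 of input, and in that of Mll5 with 7, 1 and 1. The other 6 had 6 wild-type tags each: coding exons of Gpr179, Snx29 and Cpa5 with 4, 2 and 1 knock-out tags and 1, 0 and 2 input tags, and 3′ UTRs of Rassf4, Dgke and Zbtb38 with 3, 1 and 1 knock-out tags and 0, 1 and 0 input tags. A palindrome with 2 mismatches was found at the sites in Gpr179, an orphan receptor, and Dgke, a diacylglycerol kinase. Among exon sites too, ties in wild-type tags went to those with more knock-out tags.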

How the data were processed

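Primary fibroblast chromatin was sonicated, immunoprecipitated, amplified by 18 PCR cycles and sequenced to 14358325 reads for wild-type ChIP, 16330049 for knock-out ChIP and 12029975 for input. The authors deposited read positions mapped with ELAND to mm9, in which copies are kept, and site intervals of 16 bp called with ChIP-peak on the wild-type library, with a threshold of 5 tags and a shift of 75 bp. They also deposited mm9 boundaries of regions rich in histone marks, from published data of mouse embryonic fibroblasts, and of lamina domains from human fibroblasts. No deposited value was a level or score.

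Reads mapped to 1 place made up 68.1%, 66.3% and 45.1% of the libraries, and each position had 2.92, 3.45 and 1.32 copies on average, which were reduced to 1 tag. Gene bodies, exons and TSS came from GENCODE vM1, and sequence from the NCBIM37 reference. Eligible sequence is that which meets the rule for sites. Intervals are exact 95% Poisson, Clopper-Pearson or binomial, and for ratios of ratios normal on the log scale. They cover counting error only, as PCR copies without molecular identifiers are not independent molecules, and with 1 library per condition nothing was tested.

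The genes named were the 20 with the most sites per 100 kb (at least 5 sites and 20 kb), the 8 with the most sites, the 8 with the fewest per length among those with 500 kb or more, and up to 4 examples per list, those with the most sites. The sites named were the 10 with the most wild-type tags and fewer than 5 input tags, the 8 such sites in exons and the 10 with a palindrome of at most 1 mismatch, none on chromosome 18 where sequence is printed. Ties in wild-type tags were broken by more knock-out tags, then by position. Members and lists were chosen with earlier results of these data known. Alternatives were the TSS distance, the TSS set, tag counting, the window, composition strata, overlap rules and sites left out. Counting and interval code was tested on simulated data. The code ran in Python 3.11.15 with Numba 0.67.0, pandas 2.3.3, NumPy 2.4.6 and SciPy 1.17.1, and figures were drawn with matplotlib 3.10.9. Lists of microRNA loci were not used here. Some genes that meet these rules are not reported here.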

Additional observations from a re-analysis of the deposited data

How the results depend on the processing

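Of 65 alternatives, 39 gave a value inside the interval of the reported one. Those that left out the intron site of Cdk5rap2 or the gene Fgfr2, and those that left out sites with 5 or more input tags by position or by wild-type tags, were chosen after seeing the data. Only 1 turned a direction that lay outside counting error. It was the limit of fewer than 5 input tags, under which gene bodies against sites outside genes gave 0.933 in place of 1.13. The same limit gave 1.17 in place of 1.78 for gene bodies against sites near TSS, and 4.39 in place of 1.76 at 7 or more wild-type tags. The list of growth factor receptors and their signalling had 2.80 sites per 100 kb without Fgfr2, in place of 2.30. The number of gene-body sites was 16322 with a TSS distance of 2 kb, 11932 with 10 kb, 16572 with the outermost TSS and 14918 with all annotated genes. The knock-out over input at gene-body sites, 1.41 as reported, was 1.37 with a TSS distance of 2 kb, 1.35 with the outermost TSS of each gene only, 1.28 with all tags counted and 1.36 in 600 bp. With all tags, the exon to intron ratio was 0.844 in place of 0.717, and the ratio inside to outside H3K36me3 was 0.777 in place of 1.02. The exon share was 8.63% at 2 kb, 6.55% at 10 kb, 8.85% with the outermost TSS and 3.19% for coding exons only. The H3K36me3 share was 57.0%, 51.5% and 57.8% at 2 kb, at 10 kb and with the outermost TSS. The palindrome share was 0.585% with at most 1 mismatch and 1.07% within 50 bp of the centre. The density over the 20 densest genes, 11.4 sites per 100 kb as reported, was 16.3 at 2 kb and 9.98 at 10 kb, each with 10 genes shared, 18.2 with the outermost TSS and 12 shared, and 14.4 with at least 3 sites per gene and 8 shared. The cause of these shifts was not tested.

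No paired analysis was possible because each condition had 1 library. Fewer than 1 tag per 300 bp in each library limits what can be said of single sites, and densities of single genes rest on few sites.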

Other observations

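The members with 5 or more input tags numbered 38 and held 419 wild-type and 393 knock-out tags and 567 of input, with a knock-out over input of 0.907 (0.796 to 1.03). Their mean G and C content was 51.1%. A further site with many knock-out tags, in an intron of 1110007C09Rik, had 8 wild-type and 12 knock-out tags and 1 of input and a palindrome with 2 mismatches, and was named after its values were seen.

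Within each range of G and C, members inside H3K4me3-rich regions had a higher knock-out over input than those outside, by 1.43-fold (1.21 to 1.69) below 35%, 1.09-fold (0.954 to 1.25) at 35 to 40% and 1.53-fold (1.30 to 1.79) at 50 to 55%. The interval included 1 in the range of 35 to 40% only.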
